A study of Mus musculus with 8 samples.

Results

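Matrix metalloproteinases (MMPs) and the tissue inhibitors of metalloproteinases (TIMPs) were examined in the livers of Pemt-/- and Pemt+/+ mice fed the high fat-high sucrose (HFHS) diet. Of 10 genes of both families chosen by name (Mmp2, Mmp8, Mmp9, Mmp13, Mmp14, Mmp15, Mmp19, Timp1, Timp2 and Timp3), 9 were named by at least 1 single-gene probe set, and together they held 22 of the 45037 probe sets on the array. Mmp15 was not analysed here because no probe set was paired with it alone. Mmp12 was set outside the group and is given only as a chromosomal neighbour and among the other Mmp and Timp genes.

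Total liver RNA was hybridised to 8 Affymetrix GeneChip arrays, 1 for each genotype after 1, 2, 3 and 4 weeks of the diet. The mice were male, and the Pemt-/- animals lack phosphatidylethanolamine N-methyltransferase, the enzyme that methylates phosphatidylethanolamine to phosphatidylcholine, in the whole body. Pemt+/+ mice on the same diet were the controls, and no array of another diet was analysed here. The arrays address how hepatic gene expression differs between the genotypes during the first weeks of the diet. Livers came from 4 mice of each genotype, and the methods do not say whether this number is the total over the weeks. The age at the start of the diet was not given in the sources used here. Each p-value below reflects how far these 8 arrays vary. The Pemt probe set itself had an intensity of 224 ± 26.4 in Pemt-/- and 5543 ± 437 in Pemt+/+ (SD, n = 4 each), and no array went against its labelled genotype. A probe set is a group of short probes that reads a stretch of a transcript, and its intensity is a brightness on a linear scale that can be compared between arrays but not between probe sets.

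MMPs are zinc-dependent endopeptidases that are made as inactive proenzymes and cleave collagens and other matrix proteins. TIMPs bind active MMPs and block them, and the balance of both sets the turnover of matrix in a scarring liver, where stellate cells and macrophages are known sources of several members. The groups by role are collagenases (Mmp8, Mmp13), gelatinases (Mmp2, Mmp9), membrane-type enzymes (Mmp14, Mmp15), Mmp19, which stands apart from these classes, and the inhibitors (Timp1, Timp2, Timp3).

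Transcripts of the collagenase Mmp13, the gelatinase Mmp2, the membrane-type enzyme Mmp14 and the inhibitors Timp1 and Timp2 were higher in Pemt-/- livers. The fitted differences were 10.1-fold for Mmp13 (4.16- to 31.1-fold with other constants added to its near-zero wild-type values), 4.41-fold for Timp1, 2.08- to 4.24-fold over 4 probe sets of Timp2, 2.27- and 2.56-fold for the probe sets of Mmp2, and 1.98- and 2.13-fold for those of Mmp14 that passed. The neutrophil enzymes Mmp8 and Mmp9 and the enzyme Mmp19 did not pass the test. Timp3 gave a different result from probe set to probe set, and its only call depended on the processing.

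These values come from a limma model with genotype and week on log2(intensity + 16), and every fold below is on that scale unless it is called a ratio. The test covered the 27022 probe sets whose mean was above the 40th percentile (an intensity of about 45.5), and 20 of the 22 were among them. At an adjusted p under 0.05, 11 of the 20 were higher in Pemt-/-, where 10.3% of all probe sets tested were, and 0 of the 20 were lower, where 5.86% of all were. The probe sets of Mmp8 and Mmp13 and 1 of Timp2 (1450040_at) reached the filter only through the Pemt-/- arrays. When no filter was used, 10 of the 22 were higher, against 5.16% of all 45037 probe sets, and 0 were lower, against 2.6%.

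The proximal promoters are shown for each gene that had a RefSeq promoter (GRCm38.p6) and a probe set called higher, and for neighbours of Mmp13, since they differ in the motifs they hold. Promoters were found for 7 of the 10 genes, and the others, Mmp2, Mmp9 and Mmp19, are named only. Each line is the stretch that ends at the base before the annotated start, written 5′ to 3′ along the gene, and capitals mark a motif on either strand. The letters searched were TGANTCA for the AP-1 factors. For the box at which general transcription factors assemble they were TATAAA. For the GC box of Sp1-type factors, frequent in housekeeping promoters, they were GGGCGG. For Runx factors, which are known to act on some collagenase promoters, the letters were ACCACA. The Mmp13 sequence lies at chr9:7272389-7272513 on the plus strand, Mmp14 at chr14:54431473-54431597 on the plus strand, Timp1 at chrX:20870041-20870165 on the plus strand, Timp2 at chr11:118355412-118355536 on the minus strand and Timp3 at chr10:86300287-86300411 on the plus strand.
Mmp13: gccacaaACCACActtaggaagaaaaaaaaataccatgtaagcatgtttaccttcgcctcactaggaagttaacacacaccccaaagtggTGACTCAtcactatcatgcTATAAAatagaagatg
Mmp14: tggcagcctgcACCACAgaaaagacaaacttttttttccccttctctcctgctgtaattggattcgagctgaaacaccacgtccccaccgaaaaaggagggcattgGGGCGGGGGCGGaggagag
Timp1: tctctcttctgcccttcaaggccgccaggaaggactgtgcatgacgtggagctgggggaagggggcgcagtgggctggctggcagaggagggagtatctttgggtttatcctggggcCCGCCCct
Timp2: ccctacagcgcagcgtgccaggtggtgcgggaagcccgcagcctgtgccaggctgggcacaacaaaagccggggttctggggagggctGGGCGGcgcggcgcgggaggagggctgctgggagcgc
Timp3: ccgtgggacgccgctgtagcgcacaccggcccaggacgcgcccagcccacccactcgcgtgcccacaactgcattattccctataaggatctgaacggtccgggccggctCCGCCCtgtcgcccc

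Mmp13 was the only one of the 7 with AP-1 letters in the 250 bases before its start, 35 bases upstream, and it also held a TATA box at 16 bases and Runx letters at 118 bases. Over all 32851 promoters of that length, 6.75% held the AP-1 letters, 12.4% a TATA box, 14% the Runx letters and 1.21% AP-1 and TATA together. A GC box was present in 5 of the 7, namely Mmp14, Mmp15, Timp1, Timp2 and Timp3, and in 32.7% of all promoters. Mmp14 carried 2 adjoining GC boxes and also Runx letters at 114 bases. The window of Mmp13 held 1 CpG dinucleotide, compared with 10 in Mmp14, 6 in Timp1, 21 in Timp2 and 18 in Timp3. The Mmp8 window held none of the motifs searched. Such matches describe the letters and were not tested as binding sites.

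Mmp13, which cleaves fibrillar collagen and is the main interstitial collagenase of rodents, was close to the bottom of the scale in wild-type liver. Its intensities in Pemt-/- were 187, 124, 380 and 384 at weeks 1 to 4, and in Pemt+/+ they were 11.7, 1.25, 3.09 and 30.7. The lowest knockout array was several times brighter than the highest wild-type array, and the knockout arrays of weeks 3 and 4 were the brightest. The means were 269 ± 133 and 11.7 ± 13.5 (SD, n = 4), and the fitted difference was 3.34 ± 0.31 on the log2 scale (SE, adjusted p = 0.000693). Because most wild-type values lay under the constant of 16, the size depends on it: the difference was 2.06 with a constant of 64 and 4.96 with a constant of 1 and no filter, and the call held in both (adjusted p = 0.000820 and 0.00202). The ratio of deposited intensities ran from 12.5 to 123 over the weeks, which rests on near-zero wild-type values.

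Timp1, the inducible inhibitor that also has growth-promoting actions, had its highest value at week 4 in both genotypes. Its intensities were 230, 181, 394 and 578 in Pemt-/- and 24.7, 38.8, 91.5 and 114 in Pemt+/+. The ranges did not overlap, and the Pemt-/- array exceeded its Pemt+/+ partner 9.33-fold at week 1, 4.65-fold at week 2, 4.31-fold at week 3 and 5.06-fold at week 4 as ratios. The fitted difference was 2.14 ± 0.19 (SE, 4.41-fold, adjusted p = 0.000683).

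Timp2, which inhibits MMPs and together with Mmp14 forms the complex that activates pro-Mmp2, was measured by 6 probe sets. The brightest, 1454677_at, read 888, 990, 1383 and 1654 in Pemt-/- and 572, 485, 350 and 683 in Pemt+/+, a difference of 1.20 ± 0.19 (SE, 2.30-fold, adjusted p = 0.00486). For 1433662_s_at the intensities were 486, 618, 932 and 1191 against 259, 306, 276 and 315, a difference of 1.35 ± 0.19 (SE, 2.55-fold, adjusted p = 0.00274). The knockout values followed the order of the weeks in both, and the wild-type values did not. The probe set 1460287_at was 655, 593, 894 and 993 against 318, 373, 329 and 429 (2.08-fold, adjusted p = 0.00271). Dimmer but further apart was 1450040_at, with 132, 156, 253 and 264 against 38.8, 17.5, 23.2 and 66.4 (4.24-fold, adjusted p = 0.00211). The size of this last difference depends on the constant, and was 2.62-fold with 64 and 5.85-fold with 1 and no filter. In all 4 the knockout and wild-type arrays did not overlap. The other 2 were dim: 1420924_at overlapped, at 37.2 to 78.5 in Pemt-/- and 24.6 to 80.0 in Pemt+/+ (adjusted p = 0.794), and 1437081_at stayed between 3.82 and 9.86 on all 8 arrays and was not tested. The suffix _s_at marks a probe set whose probes can match transcripts of more than 1 gene.

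**Figure D1:**
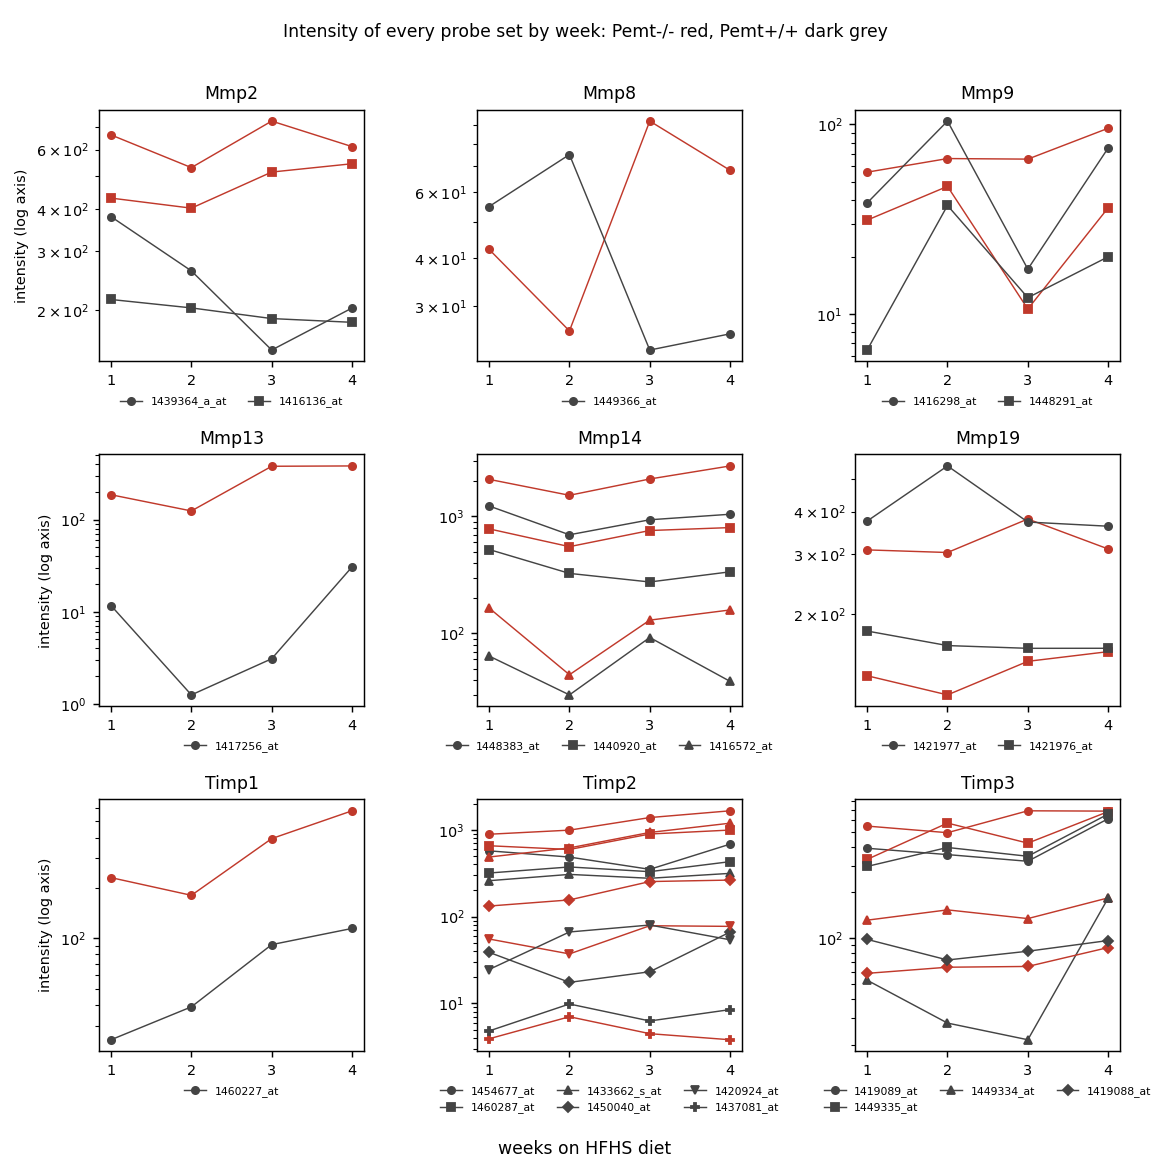
Intensity (log axis, own scale in each panel) of every probe set of the 9 genes against weeks on the HFHS diet, with Pemt-/- arrays in red, Pemt+/+ arrays in dark grey, 1 array per point and 1 marker shape per probe set. The red lines lie wholly above the grey ones for Mmp2, Mmp13, Timp1, the 2 brighter probe sets of Mmp14 and 4 probe sets of Timp2, and cross or lie below them for Mmp8, Mmp9 and Mmp19.

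Mmp2, the gelatinase that degrades denatured collagen and basement membrane collagen and is made mainly by fibroblast-type cells, was read by 2 probe sets. Intensities of 1439364_a_at were 664, 531, 730 and 613 in Pemt-/- and 379, 262, 152 and 203 in Pemt+/+, and those of 1416136_at were 431, 402, 515 and 545 against 215, 203, 189 and 184. Neither overlapped between genotypes. The differences were 1.36 ± 0.22 (SE, 2.56-fold, adjusted p = 0.00485) and 1.18 ± 0.15 (SE, 2.27-fold, adjusted p = 0.00217).

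Mmp14, the membrane-anchored collagenase and activator of pro-Mmp2, was read by 3 probe sets. The brightest, 1448383_at, gave 2075, 1516, 2090 and 2703 in Pemt-/- and 1229, 697, 937 and 1044 in Pemt+/+ (difference 1.09 ± 0.12 SE, 2.13-fold, adjusted p = 0.00129), and 1440920_at gave 783, 552, 758 and 803 against 522, 326, 275 and 336 (0.98 ± 0.16 SE, 1.98-fold, adjusted p = 0.00567). Week 2 was the lowest knockout array in both, and all knockout arrays stood above all wild-type arrays. The dim 1416572_at was higher in 4 of 4 weeks, at 165, 44.3, 130 and 159 against 64.1, 29.8, 92.2 and 38.9, but its ranges overlapped and it did not pass (0.92 ± 0.28 SE, adjusted p = 0.0564). Mmp2, Mmp14 and Timp2, the 3 parts of the pro-Mmp2 activation complex, were thus each higher in Pemt-/- by at least 2 of their probe sets.

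Timp3, the inhibitor that stays bound to the matrix and also blocks ADAM proteases, was split among its 4 probe sets. The probe set 1449334_at read 132, 154, 135 and 184 in Pemt-/- and 53.2, 27.8, 21.6 and 184 in Pemt+/+. The wild-type array of week 4 reached the knockout level, and the other wild-type arrays were far below it. This probe set passed (1.26 ± 0.34 SE, 2.40-fold, adjusted p = 0.0366) but lost the call when the filter was dropped (adjusted p = 0.0728), under quantile normalization (0.0600) and without the arrays of week 1 (0.102), week 2 (0.0975) or week 3 (0.143), while it kept it without those of week 4 (0.016). The brightest, 1419089_at, was higher in 4 of 4 weeks, at 545, 493, 687 and 683 against 390, 354, 320 and 609, and lay just beyond the threshold (0.54 ± 0.16 SE, adjusted p = 0.0526). The remaining pair did not pass and differed in sign, with 0.25 ± 0.13 SE for 1449335_at (adjusted p = 0.244) and -0.29 ± 0.22 SE for 1419088_at (adjusted p = 0.429). In all 4 probe sets the wild-type array of week 4 was brighter than that of week 3.

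Mmp8 and Mmp9, the collagenase and the gelatinase best known from neutrophil granules, were dim and their ranges overlapped between genotypes. Mmp8 read 42.3, 25.8, 92.1 and 68.3 in Pemt-/- and 54.8, 75.2, 22.9 and 25.3 in Pemt+/+, lower in the knockout at weeks 1 and 2 and higher at weeks 3 and 4 (0.27 ± 0.44 SE, adjusted p = 0.718). Mmp9 1416298_at read 56.0, 66.1, 65.6 and 95.5 against 38.5, 104, 17.3 and 75.1 (0.36 ± 0.33 SE, adjusted p = 0.497). The other Mmp9 probe set, 1448291_at, was under 48 on every array and was not tested. The SE of Mmp8 was larger than that of any Mmp2 probe set. No difference was detected at this precision, and SEs of 0.44 and 0.33 log2 units do not limit what was missed to a small difference.

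Mmp19, a broadly acting enzyme of basement membrane substrates, was the only gene with lower values in Pemt-/- in its leading probe set. Intensities of 1421977_at were 309, 304, 381 and 311 in Pemt-/- and 375, 545, 373 and 363 in Pemt+/+ (-0.32 ± 0.16 SE, adjusted p = 0.225). For 1421976_at they were 132, 116, 146 and 155 against 179, 162, 159 and 159 (-0.24 ± 0.17 SE, adjusted p = 0.381). In the latter every knockout array lay below every wild-type array, as in 6.82% of all probe sets, but the gap was small and the test was not passed.

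**Figure D2:**
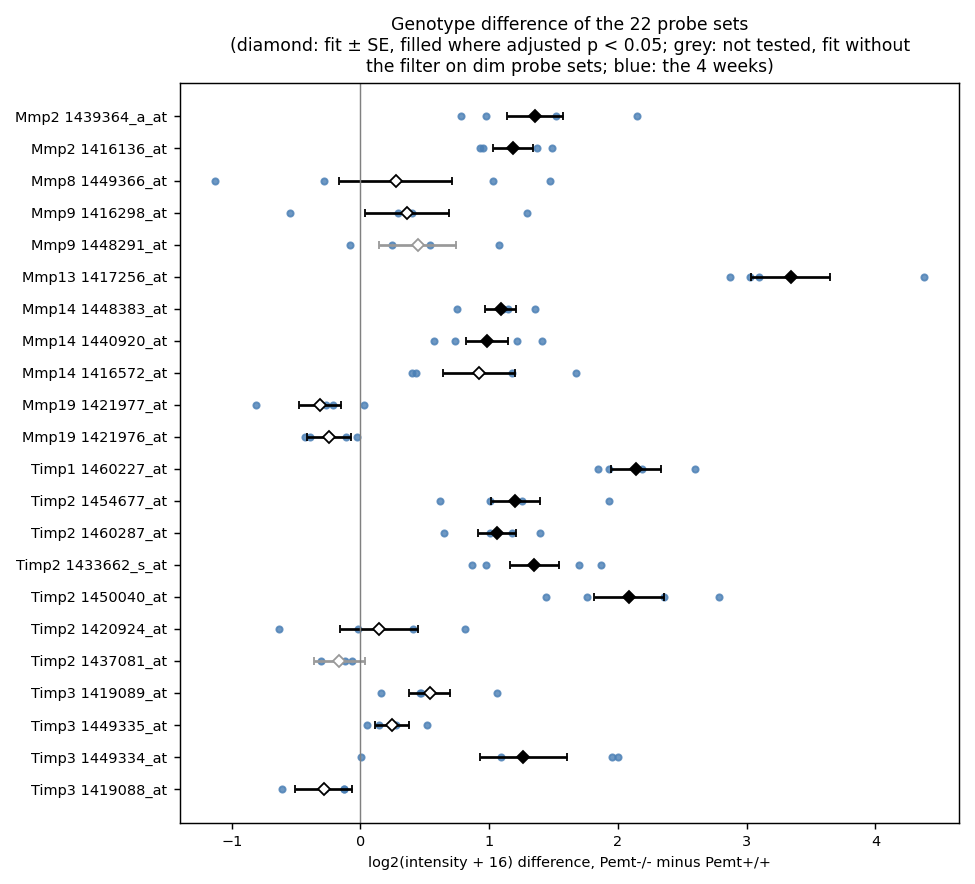
Difference in log2(intensity + 16), Pemt-/- minus Pemt+/+, for the 22 probe sets, with the fitted value ± SE as a diamond (filled where the adjusted p was under 0.05, grey where the probe set was not tested and comes from the fit without a filter) and the difference at each of the 4 weeks as a blue point. The 11 filled diamonds lie to the right of 0, from 0.98 for Mmp14 1440920_at to 3.34 for Mmp13.

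Across the 22 probe sets, all Pemt-/- arrays were above all Pemt+/+ arrays in 10 (8.52% of all probe sets on the array), all were below in 1, and the ranges overlapped in 11. The knockout value was the higher in 4 of 4 weeks in 14 probe sets (15% of all) and the lower in 4 of 4 weeks in 3 (14.8%). By the ratio rule of the study's methods, with 1 array per genotype and week and hence no test, a ratio of 2 or more was reached by 9 probe sets at week 1 (13.3% of all), 8 at week 2 (13.4%), 14 at week 3 (14.4%) and 12 at week 4 (15.9%). A ratio of 0.5 or less was found for Mmp8 at week 2 (0.34, 14.9% of all probe sets) and for the near-zero Timp2 1437081_at at week 4 (0.45, 14.6%), and for 0 of the 22 at week 1 (14.2%) and week 3 (15.9%). The probe sets of Mmp13 and Timp1 and Timp2 1450040_at reached 2 in all 4 weeks (1.41% of all).

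No member passed the test for a change over the weeks at an adjusted p under 0.05, and with 4 arrays per slope hardly any probe set did. With a slope fitted for each genotype in limma, 0 of the 20 tested probe sets passed in Pemt-/- (0.0296% of all passed upward and 0.074% downward), 0 in Pemt+/+ (0% of all) and 0 for the difference between the slopes (0% of all). At an unadjusted p under 0.05 there were 4 in Pemt-/- (10.3% of all), 3 in Pemt+/+ (5.45%) and 1 for the difference (6.73%). The slope in Pemt-/- was above 0 for 20 of 20 probe sets (52.3% of all tested) and that in Pemt+/+ for 12 of 20 (49.2%). The 20 probe sets come from the same arrays and several read the same gene.

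The closest to the threshold was Timp2 1433662_s_at, with 0.44 ± 0.07 log2 units per week in Pemt-/- (SE, adjusted p = 0.0649). It passed with a filter at the 60th percentile (adjusted p = 0.0466) and with a constant of 64 (adjusted p = 0.0475). In Pemt+/+ its slope was 0.07 ± 0.07, and the difference of slopes, 0.37 ± 0.10, had an unadjusted p of 0.0052 and an adjusted p of 0.604. The slopes of Timp1 were 0.49 ± 0.14 in Pemt-/- (adjusted p = 0.239) and 0.60 ± 0.14 in Pemt+/+ (adjusted p = 0.690), and the difference between them was -0.11 ± 0.20 (SE, adjusted p = 0.961).

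Among the 11 probe sets called higher, the brightest Pemt-/- array was that of week 4 in 10 and that of week 3 in 1, and over all 2788 probe sets called higher these shares were 57.4% and 19.7%. The dimmest was that of week 2 in 7 and of week 1 in 4, against 57.7% and 26.1% of all called higher. The Pemt-/- array of week 2 also had the lowest summed intensity of macrophage, neutrophil and stellate cell markers of the knockout arrays and the highest of hepatocyte markers, as given below.

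Mmp13 is the first gene of a cluster on chromosome 9 that runs in the order Mmp13, Mmp12, Mmp1b, Mmp3, Mmp1a, Mmp10, Mmp8, Mmp27, Mmp20 and Mmp7 with no other protein-coding gene in between. Its neighbour Mmp12, the macrophage elastase, read 786, 512, 1615 and 1762 in Pemt-/- and 6.69, 5.16, 3.85 and 1.74 in Pemt+/+ (adjusted p = 0.000166). The next genes, Mmp1b, Mmp3, Mmp1a and Mmp10, and also Mmp20, stayed under 48 on every array and were not tested, and Mmp7 and Mmp8 did not pass (adjusted p = 0.451 and 0.718). Mmp13 and Mmp12 were thus the only genes of the cluster with a passed test, but both reached the filter only through the Pemt-/- arrays. In the limma fit with no filter, the adjusted p was 0.00179 for Mmp13 and 0.000359 for Mmp12. For the untested neighbours it was 0.163 (Mmp1b), 0.555 (Mmp3), 0.76 (Mmp1a), 0.958 (Mmp10) and 0.842 (Mmp20). Mmp27 had no probe set named for it alone. AP-1 letters stood in the promoters of 8 of the 10 genes, including those that stayed dim, and 7 of these also held a TATA box. The upstream stretches of 4 neighbours are shown for comparison with that of Mmp13, with AP-1 letters and TATA boxes in capitals. They lie on the plus strand at chr9:7347274-7347373 for the second of the 2 starts annotated for Mmp12, chr9:7445722-7445821 for Mmp3, chr9:7464041-7464140 for Mmp1a and chr9:7502242-7502341 for Mmp10.
Mmp12: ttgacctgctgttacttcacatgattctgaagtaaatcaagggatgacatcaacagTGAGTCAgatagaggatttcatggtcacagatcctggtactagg
Mmp3: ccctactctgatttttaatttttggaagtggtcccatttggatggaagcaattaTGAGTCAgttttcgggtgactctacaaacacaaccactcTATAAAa
Mmp1a: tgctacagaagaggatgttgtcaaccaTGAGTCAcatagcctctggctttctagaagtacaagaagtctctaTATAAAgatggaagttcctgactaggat
Mmp10: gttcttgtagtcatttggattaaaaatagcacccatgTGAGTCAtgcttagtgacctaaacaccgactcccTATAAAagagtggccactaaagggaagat

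**Figure D3:**
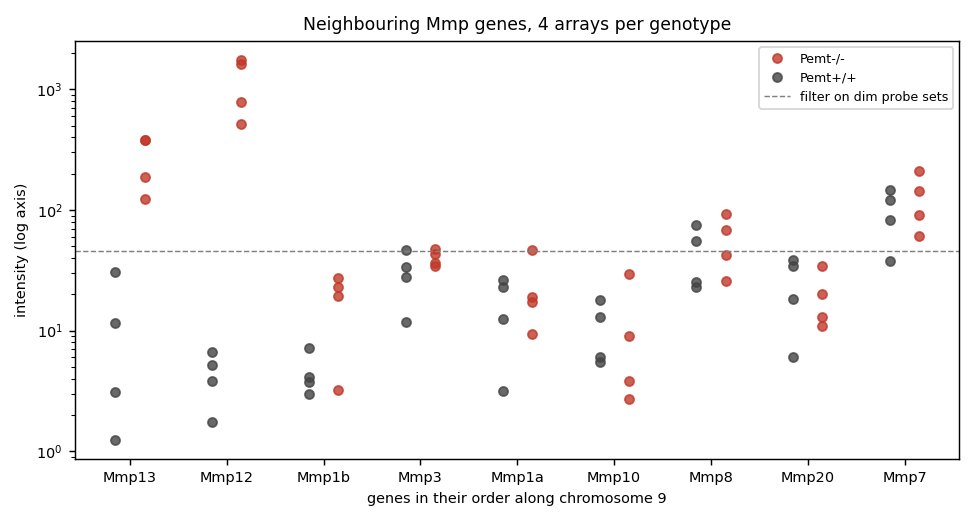
Intensity (log axis) of the genes of the chromosome 9 cluster that had a probe set, in their order along the chromosome, with 4 Pemt-/- arrays in red and 4 Pemt+/+ arrays in dark grey and the filter on dim probe sets as a dashed line. Mmp13 and Mmp12 separate fully, at 124 to 384 against 1.25 to 30.7 and 512 to 1762 against 1.74 to 6.69, while the red and grey points of Mmp1b, Mmp3, Mmp1a, Mmp10, Mmp8, Mmp20 and Mmp7 overlap.

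The other genes of matrix turnover were counted by the probe set with the highest mean of each gene, for which 12.6% of all 12949 genes tested were higher and 7.51% lower and the median difference was 0.016. By that count 5 of the 9 genes described here were higher and 0 lower, with a median of 1.09. Of the 18 matrix substrates, 16 were higher and 1 lower (median 1.43). Among them were Dcn, which encodes the collagen-binding proteoglycan decorin (2.10-fold, adjusted p = 0.000484), and the basement membrane collagens Col4a1 and Col4a2 (2.84- and 2.16-fold). Fn1, fibronectin, fell by 0.28 on the log2 scale (adjusted p = 0.0473), and Vcan, the proteoglycan versican, had a difference of -0.60 and did not pass (adjusted p = 0.186). Of the 2 probe sets of Fn1 tested, only 1 passed.

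Of the proteases and regulators that act with MMPs, 7 of 13 ADAM and ADAMTS genes were higher and 0 lower (median 0.66), among them the secreted proteases Adamts1, Adamts12 and Adamts5 (2.33-, 3.11- and 2.26-fold) and the membrane-bound Adam8 (3.16-fold, adjusted p = 0.00706). The 7 include Adam15, Adam17 and Adamts9, each with only 1 of 3 tested probe sets passed. Plat, the tissue plasminogen activator whose product plasmin activates several pro-MMPs, was 3.56-fold higher (adjusted p = 0.00321), while Plg, plasminogen itself, was 1.42-fold lower (adjusted p = 0.00911), and 2 of 7 genes of plasminogen activation were higher and 1 lower (median 0.27). Of the 2 probe sets of Plat tested, only 1 passed. Among 15 other regulators and partners, 6 were higher and 2 lower (median 0.40). The 2 lower genes were Tfpi2 and Reck, and Reck was 1.70-fold lower (adjusted p = 0.0171). Cd44, a docking receptor for MMPs at the cell surface, was 3.61-fold higher (adjusted p = 0.00129), and Tfpi2, a protease inhibitor of the matrix, was 1.81-fold lower (adjusted p = 0.00286). Of 9 cathepsins and cystatins, 5 were higher and 0 lower (median 0.38), among them Ctsk, a collagenolytic cathepsin (3.54-fold, adjusted p = 0.0104).

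The other Mmp and Timp genes, Mmp12 included, were largely dim. Of the 13 with a probe set, 6 were tested by the highest-mean probe set, and 2 were higher, Mmp12 and Mmp23, with a median of 0.17. That probe set of Mmp23 was 2.42-fold higher (adjusted p = 0.0284) but did not pass when the filter was dropped (adjusted p = 0.0574), and the other probe set of Mmp23 did not pass (adjusted p = 0.157).

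AP-1 dimers, which bind the letters found before Mmp13, are formed by Jun and Fos proteins and by Atf3. Of the 7 subunit genes tested, 3 were higher in Pemt-/- and 0 lower (median 0.63). Jun read 1701, 1876, 3088 and 4524 in Pemt-/- and 360, 995, 1187 and 1739 in Pemt+/+ (2.75-fold, adjusted p = 0.00190). Atf3 read 504, 366, 964 and 2036 against 128, 67.5, 87.9 and 139 (6.74-fold, adjusted p = 0.00110). Jund was 1.76-fold higher (adjusted p = 0.0144). For both Jun and Atf3 the knockout array of week 4 was the brightest of all 8. Fos, with 449 to 851 against 214 to 1111, did not pass (adjusted p = 0.492). A link between these subunits and the level of Mmp13 was not tested.

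**Figure D4:**
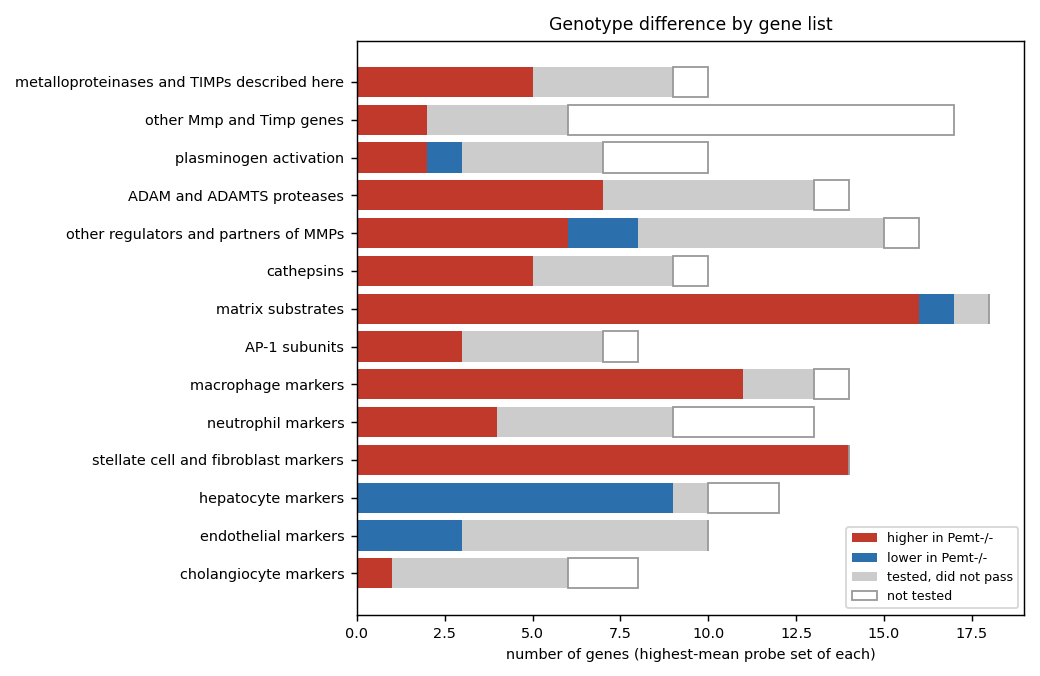
Number of genes in each list whose highest-mean probe set was higher (red) or lower (blue) in Pemt-/- at an adjusted p under 0.05, tested without passing (grey) or not tested (white), where lists share some genes. The matrix substrates (16 of 18 higher) and the stellate cell and fibroblast markers (14 of 14 higher) are nearly all red, and the hepatocyte markers (9 of 10 lower) nearly all blue.

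The cell types known to make these enzymes and inhibitors were followed by marker lists. In bulk liver, fewer cells of a type and less RNA per cell cannot be told apart. Each summed intensity adds probe sets of unlike brightness, so the brightest markers weigh most, and a sum is compared only between arrays. All 14 stellate cell and fibroblast markers were higher in Pemt-/- (median 1.46), and their summed intensity was 49500 to 69030 against 17750 to 23510, with Pdgfra 2.75-fold and Postn 2.75-fold higher. Of these, 4 (Col1a1, Col1a2, Col3a1 and Dcn) also stand among the matrix substrates. Of 13 macrophage markers tested, 11 were higher and 0 lower (median 1.51), with sums of 32960 to 45800 against 14260 to 20130. The largest difference was that of Gpnmb (23.1-fold), a marker of lipid-laden macrophages. Trem2, at 117 to 618 in Pemt-/- and 6.44 to 23.4 in Pemt+/+, reached the filter only through the Pemt-/- arrays. Clec4f (difference -0.016, adjusted p = 0.946) and Vsig4 (adjusted p = 0.0844) did not pass, and Itgam was too dim to be tested. Clec4f, Vsig4, Cd5l and Marco were dimmer at week 4 than at week 1 in both genotypes. Of 9 neutrophil markers tested, 4 were higher and 0 lower (median 0.98). S100a8 was 5.50-fold, S100a9 4.77-fold, Lcn2 8.16-fold and Csf3r 2.58-fold higher, and Csf3r reached the filter only through the Pemt-/- arrays. The granule proteins Ngp, Ltf, Mpo, Elane and Prtn3 did not pass and were at most 212 on any array. Camp and Cxcr2 were too dim to be tested, and Ly6g and Retnlg had no probe set named for them alone. The neutrophil sum, 4027 to 17310 against 1058 to 3389, held 66.0% to 92.1% Lcn2 in Pemt-/- and 33.4% to 78.0% in Pemt+/+, and hepatocytes also make Lcn2.

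Of 10 hepatocyte markers, 0 were higher and 9 lower (median -0.42), and the sum of 241100 to 298500 against 331900 to 359400 shows that the labelled tissue, liver, is present in all 8 arrays. Endothelial markers were lower in 3 of 10 and higher in 0 (median -0.24), and cholangiocyte markers higher in 1 of 6, Cldn7 (median 0.43). Cldn7, at 95.7 to 176 in Pemt-/- and 5.82 to 38.2 in Pemt+/+, reached the filter only through the Pemt-/- arrays. The share of these cell types in the differences of Mmp2, Mmp13, Mmp14, Timp1 and Timp2 was not tested.

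**Figure D5:**
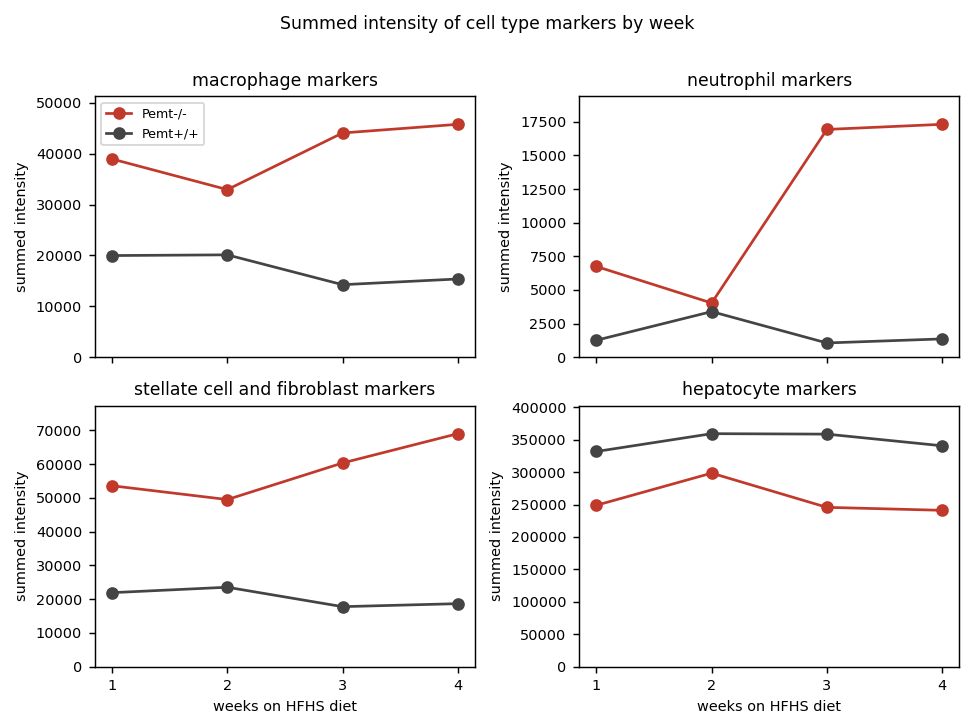
Summed intensity (linear axis from 0) of the markers of 4 cell types against weeks on the HFHS diet, 1 array per point, Pemt-/- in red and Pemt+/+ in dark grey. In all 4 weeks the red points are above the grey for macrophage, neutrophil and stellate cell markers and below for hepatocyte markers, and the red points come closest to the grey at week 2 in each of the 4 panels.

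The genes whose pattern over the 8 arrays was most like that of each member were found by Pearson correlation over 12948 genes, which is a description of 8 arrays that share the genotype and week. They were Pdgfra (r = 0.994) and Ankfy1 for Mmp13, S100a9 (r = 0.990) and Imp4 for Mmp2, Gng2 (r = 0.994) and Cdkn2c for Mmp14, and Zfp704 (r = 0.996) and Gar1 for Timp2. For Timp1 they were Gas2l3 (r = 0.988) and Fundc2, for Timp3 Rgs2 (r = 0.989) and Emp3, for Mmp8 Lrp11 (r = 0.980) and Kifbp, for Mmp9 Nomo1 (r = 0.956) and Tomm20, and for Mmp19 Pigu (r = 0.955) and Ncstn. Pdgfra is a marker of stellate cells and fibroblasts and S100a9 of neutrophils and monocytes, and both stand in the marker lists above.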

How the data were processed

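Total liver RNA of 8 samples, 4 Pemt-/- and 4 Pemt+/+, 1 of each genotype at each of 4 weeks, was measured on Affymetrix arrays. The deposited values were linear intensities made by the authors with Affymetrix Expression Console, whose version and summarisation method were not given in the sources used here. Their 2% trimmed mean was 500.0 on every array, so arrays had been scaled to a common level, and the array median ran from 73.8 to 81.3. No detection calls or scan dates were used, and precision is limited by the number of arrays. Of 45101 probe sets, 64 controls were left out. GEO's platform annotation named 34945 with 1 gene, 932 with several and 9160 with none, and symbols of 34741 were updated by Entrez identifier to RefSeq (GRCm38.p6).

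Intensities plus 16 were log2-transformed, and 27022 probe sets (12949 genes) with a mean above the 40th percentile were tested in limma 3.58.1 (R 4.3.3) with lmFit and eBayes with an intensity trend, two-sided, with Benjamini-Hochberg adjustment over all of them. The genotype difference had week as a factor, so that each week was a block of 1 array per genotype. Changes per week used a slope in each genotype. A gene with several probe sets was counted in lists by the one with the highest mean. Every probe set of every member was named, with the 2 genes most correlated with each member. In each list, the rule picked up to 4 genes with the smallest p and 1 in the other direction. Only some of the genes so picked are named here. Further genes were named after their values were seen (Fos, Vcan, Ngp, Camp, Ltf, Mpo, Elane, Prtn3 and Cxcr2). Reck, Adam15, Adam17, Adamts9, Clec4f, Vsig4, Cd5l, Marco and Itgam were named in the same way. The dim genes of the chromosome 9 cluster were also named in that way. The members, lists and tests were chosen with earlier results of these data known. The script was tested on simulated data. Alternatives were other filters, constants and normalizations, no week term, eBayes without a trend, gene means and the methods' t-test.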

Additional observations from a re-analysis of the deposited data

Results flagged for a closer look

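In 44 groups of 4 arrays (22 probe sets in each genotype), 4 held an array far from the other 3, and chance alone puts about 1 in 20 groups there. For Mmp14 1440920_at the Pemt-/- array of week 2 was the lowest, at an intensity of 551.7 against 758.0 to 803.0. For Mmp19 1421977_at the Pemt-/- array of week 3 was the highest, at 380.7 against 303.6 to 311.0, and the Pemt+/+ array of week 2 was the highest, at 544.9 against 362.6 to 375.5. For Mmp19 1421976_at the Pemt+/+ array of week 1 was the highest, at 178.6 against 158.9 to 161.9.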

How the results depend on the processing

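The number of probe sets higher in Pemt-/-, 11 of 20, stayed between 9 and 12 in the other filters, constants and normalizations, and between 10 and 11 when the arrays of 1 week were left out. It was 7 by the methods' t-test (11 before adjustment), which lost Mmp14 1440920_at (adjusted p = 0.0507), Timp1 (0.0605), Timp2 1454677_at (0.0544) and Timp3 1449334_at (0.196). In all of these 0 were lower. The number tested was not 20 in every setting: 9 of 12 were higher with the 60th percentile filter, 10 of 22 with no filter and 10 of 19 with a constant of 1. By the mean of the probe sets of a gene, 5 of the 7 genes tested were higher and 0 lower. The week block gave the pairing of the samples: same-week arrays had correlations of 0.105, -0.020, -0.029 and 0.113 in their deviations from the group means, so not every pair exceeded 0.1, and without the block 10 of 20 were higher and 0 lower, with Timp3 1449334_at lost (adjusted p = 0.0694). The Timp3 call was also lost with centring on the median of the probe sets kept (0.0525), with a constant of 1 and no filter (0.0642), both chosen after seeing the data, and without a trend (0.0784). Other changes of call were Mmp14 1416572_at with median centring (0.0468) and without week 2 (0.0376), and Timp3 1419089_at with the 60th percentile filter (0.0418). Mmp13 fell under the filter at the 60th percentile and with a constant of 1.

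Centring on the probe sets kept moved the median over everything tested from 0.018 to -0.14 and the share of calls that were higher from 63.8% to 37.6%, and 10 of 20 were higher and 0 lower. Over all probe sets, 2788 were higher and 1584 lower, 1715 and 633 without a trend, 1977 and 3280 with that centring, 1636 and 875 by the methods' t-test, and 1334 to 2942 and 484 to 1851 when 1 week was left out, with the fewest without week 3.

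Only 1 probe set, Timp2 1433662_s_at, changed over the weeks in Pemt-/- with the 60th percentile filter and with a constant of 64, and 0 did elsewhere. Ratios of 2 or more at week 2 fell from 8 to 5 with quantile normalization, and ratios of 0.5 or less at week 4 from 1 to 0 with 16 added. Differences that had not passed changed sign for Mmp8 without week 3 (-0.13, and up to 0.74 without week 2) and Timp2 1420924_at without week 1 (-0.082, and up to 0.40 without week 2) and with centring on the probe sets kept (-0.016). Slopes that had not passed changed sign for Mmp2 1439364_a_at in Pemt-/- (-0.0028 with quantile normalization, -0.0062 and -0.0091 with the 2 centrings, -0.023 and -0.018 without weeks 2 and 3, and up to 0.10 without week 1) and Timp2 1454677_at in Pemt+/+ (-0.34 without week 4, and up to 0.24 without week 1), and differences of slopes for Timp1 (0.066 with a constant of 64, 0.17 without week 1, and down to -0.33 without week 4) and Timp3 1449335_at (0.064 without week 4, and down to -0.23 without week 1).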
